A study of Mus musculus with 6 samples.

Results

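Polycomb repressive complex 2 (PRC2) was followed here through the mRNA of 10 of its subunits, Ezh1, Ezh2, Eed, Suz12, Rbbp4, Rbbp7, Jarid2, Mtf2, Phf1 and Phf19, out of 19937 named genes on the array. The members were chosen by name, with earlier results of these data known. Each was read from the probe set that is annotated with that gene alone and, where there were several, had the highest mean over the 6 arrays. All 10 were measured, 8 by a single probe set and 2 (Eed and Rbbp7) by the brighter of 2. The arrays carried RNA of A316 cells, which the labels call a primary adenocarcinoma line, and the series title places the tumours in the lung. The cells are from mouse, and both groups lack Cebpa, which encodes the transcription factor C/EBP alpha. Cells of 3 arrays had received PTC-209, described in the labels as a Bmi inhibitor, in 0.5% DMSO, and cells of the other 3 had received 0.5% DMSO alone. Dose and time are not stated in the labels. Since nothing says that replicates were separate cultures, p-values cover only the variation among these arrays, part or all of which may be technical.

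PRC2 places methyl groups on lysine 27 of histone H3, a mark of silenced genes. Its core holds a catalytic subunit, either Ezh2 or Ezh1, with the scaffold Suz12, the mark-binding protein Eed, and Rbbp4 or Rbbp7, which hold histones. Ezh2 is typical of dividing cells and Ezh1 is present in resting cells too, where it methylates more weakly. Accessory subunits divide the complex into the form PRC2.1, with Phf1, Mtf2 or Phf19 (the Polycomb-like proteins), and the form PRC2.2, with Jarid2 and Aebp2. PRC1, which contains Bmi1, binds the methyl mark through its Cbx subunits. The comparison asks how the PRC2 transcripts stood when cells received PTC-209, which the labels call a Bmi inhibitor.

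With PTC-209, Ezh1 was 2.52-fold higher while Ezh2 did not pass the test. Of the 10 genes 2 rose, Ezh1 and Phf1, and 3 fell, Rbbp7, Mtf2 and Phf19. The other 5, Ezh2, Eed, Suz12, Rbbp4 and Jarid2, were not called by limma at an adjusted p under 0.05. Over all named genes, 26.6% were called, 12.9% as rises and 13.7% as falls. Among the 11046 genes that in either group averaged no less than 4.33, the median log2 brightness of the tested probe sets, as all 10 members did, the share was 45.4% (21.9% rises and 23.5% falls). The members' 5 of 10, or 50%, is therefore near the share among genes of such brightness. That set is tied to the difference itself, because a gene can enter it through its higher group alone. Phf1 (4.06 with DMSO and 4.41 with PTC-209) and Phf19 (4.84 and 4.14) entered it so. The median log2 difference of the 10 members was -0.15, against 0.026 over all genes.

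**Figure D1:**
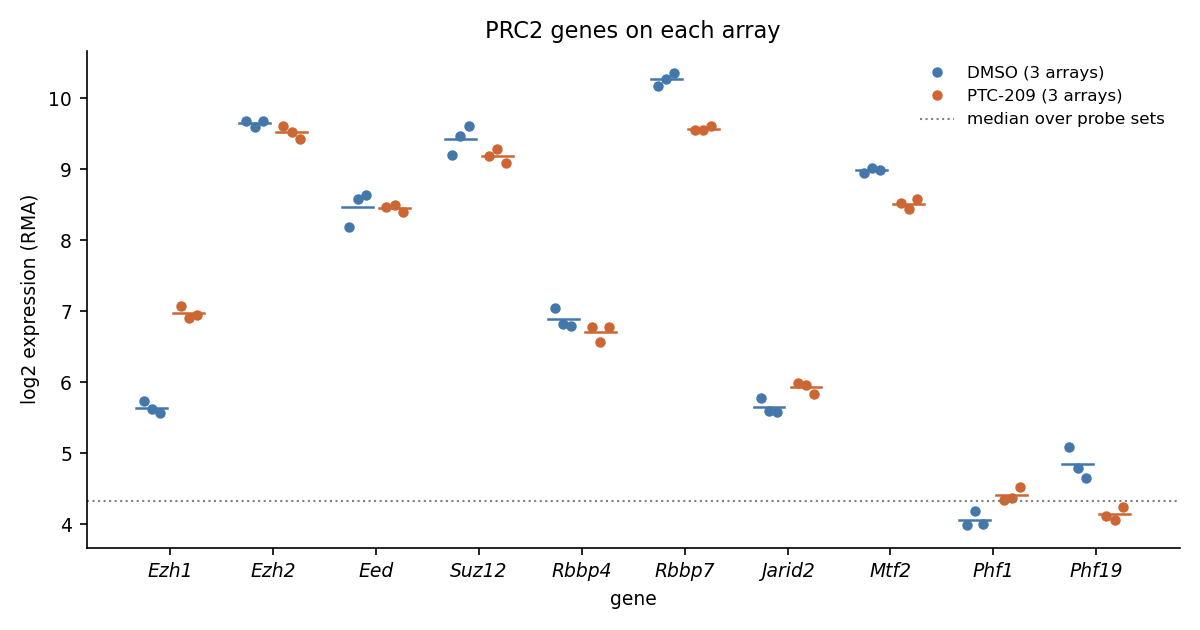
Log2 expression (RMA) of the 10 PRC2 genes on each of the 6 arrays, with DMSO in blue, PTC-209 in orange, a bar at each group mean and a dotted line at the median brightness of 4.33. Ezh1 and Rbbp7 show the widest gaps between groups relative to their spread, and the groups of Ezh2, Eed and Suz12 overlap. Heights of different genes come from different probe sets and are not comparable.

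The promoters of the members are shown for the catalytic pair and for the genes with a match to the binding motif of E2F, the factor family that drives S phase genes, because proliferation genes were lower with PTC-209 while these members differed from each other. RefSeq windows from 250 bases before to 50 after a gene's start, on build GRCm38.p6, matched all 10 members with 12 windows. The E2F motif was searched as TTTCCCGC, TTTCGCGC, TTTGCCGC or TTTGGCGC on both strands. It was found in 3 of these 12 windows, those of Ezh2, Suz12 and Phf19, and in 2.26% of all 32851 windows. Among the 20 windows of the listed proliferation genes it was in 7. The windows are Ezh1 at chr11:101226414-101226713 (minus strand), Ezh2 at chr6:47594981-47595280 (minus strand), Suz12 at chr11:79992856-79993155 (plus strand) and Phf19 at chr2:34913927-34914226 (minus strand). They are given 5′ to 3′ along the gene, with E2F matches in capitals.
Ezh1: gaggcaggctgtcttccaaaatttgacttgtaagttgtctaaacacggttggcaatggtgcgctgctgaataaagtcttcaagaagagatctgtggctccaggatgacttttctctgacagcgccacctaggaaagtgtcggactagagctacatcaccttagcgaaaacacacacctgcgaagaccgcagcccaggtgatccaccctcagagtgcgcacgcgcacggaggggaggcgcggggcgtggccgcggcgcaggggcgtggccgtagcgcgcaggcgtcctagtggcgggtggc
Ezh2: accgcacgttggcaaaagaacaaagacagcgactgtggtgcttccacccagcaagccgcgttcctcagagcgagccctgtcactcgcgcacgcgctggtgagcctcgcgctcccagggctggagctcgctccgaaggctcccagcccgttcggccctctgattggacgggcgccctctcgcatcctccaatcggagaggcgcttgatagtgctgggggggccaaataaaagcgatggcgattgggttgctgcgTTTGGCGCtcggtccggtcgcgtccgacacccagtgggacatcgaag
Suz12: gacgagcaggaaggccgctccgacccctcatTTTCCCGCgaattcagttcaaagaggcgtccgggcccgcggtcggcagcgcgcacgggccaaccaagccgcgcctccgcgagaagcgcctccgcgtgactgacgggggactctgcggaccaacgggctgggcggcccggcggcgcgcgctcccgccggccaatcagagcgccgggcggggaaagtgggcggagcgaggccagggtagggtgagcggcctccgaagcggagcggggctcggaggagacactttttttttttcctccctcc
Phf19: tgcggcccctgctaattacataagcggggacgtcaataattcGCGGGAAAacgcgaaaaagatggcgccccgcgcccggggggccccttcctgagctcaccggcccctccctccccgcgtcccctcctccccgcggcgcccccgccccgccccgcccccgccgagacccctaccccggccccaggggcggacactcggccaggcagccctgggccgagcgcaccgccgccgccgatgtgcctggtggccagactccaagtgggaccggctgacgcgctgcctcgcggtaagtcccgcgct
The match of Ezh2 began 4 bases past the annotated start, that of Suz12 219 bases before it, and that of Phf19, which lies on the opposite strand, 208 bases before it. Of these 3 genes Phf19 fell and the other two were not called. Among the 7 members without an E2F match, Rbbp7 and Mtf2 fell, Ezh1 and Phf1 rose, and Eed, Rbbp4 and Jarid2 were not called. The CHR element, a cell cycle motif searched as TTTGAA or TTCGAA, was in the windows of Mtf2, Eed and Suz12 and in 19.2% of all windows. The E-box CACGTG of the lysosomal CLEAR motif was in that of Rbbp4 alone and in 7.15% of all. The antioxidant response element TGACNNNGC was in those of both Ezh1 and Ezh2 and in 12.4% of all. Neither the C/EBP-ATF composite TGATGNAA (3.97% of all windows) nor the C/EBP motif TTGCNNAA (10.8%) was in a member's window. A match is a run of letters and does not show that a factor binds there.

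Ezh1, the weaker of the catalytic subunits, read 5.73, 5.63 and 5.57 on DMSO arrays 1 to 3 and 7.07, 6.91 and 6.94 on PTC-209 arrays 1 to 3, in log2 units. All treated arrays lay more than a log2 unit above all controls. The difference was 1.33 on the log2 scale (SE 0.098), a 2.52-fold higher level with a 95% confidence interval of 2.16 to 2.93 (limma adjusted p = 9.98e-06). A further rise than that of Ezh1 was seen in 173 of the 19937 genes. Ezh1 was called under all 16 alternative settings, with differences between 1.28 and 1.39.

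Ezh2, the main methyltransferase of dividing cells, read 9.68, 9.59 and 9.68 with DMSO and 9.61, 9.52 and 9.43 with PTC-209. The lowest control and the highest treated array overlapped. Its difference was -0.13 on the log2 scale, with an interval from -0.34 to 0.086, and was not called (limma adjusted p = 0.42). The interval leaves room for a fall of up to 1.27-fold, so an equal level is not shown.

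The balance of the pair was read as Ezh1 minus Ezh2 within each array. This value has no meaning as a ratio of molecules, because the probe sets have no common scale, but its shift between groups can be compared. It was -3.95, -3.96 and -4.11 with DMSO and -2.54, -2.62 and -2.49 with PTC-209. Every treated array lay above every control, by a mean shift of 1.46 toward Ezh1, or 2.75-fold. The exact two-sided permutation test gave p = 0.1, which is the smallest that 3 arrays against 3 allow (0.125 adjusted over the 5 pairs compared). Most of the shift came from Ezh1, as the difference of each gene shows.

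**Figure D2:**
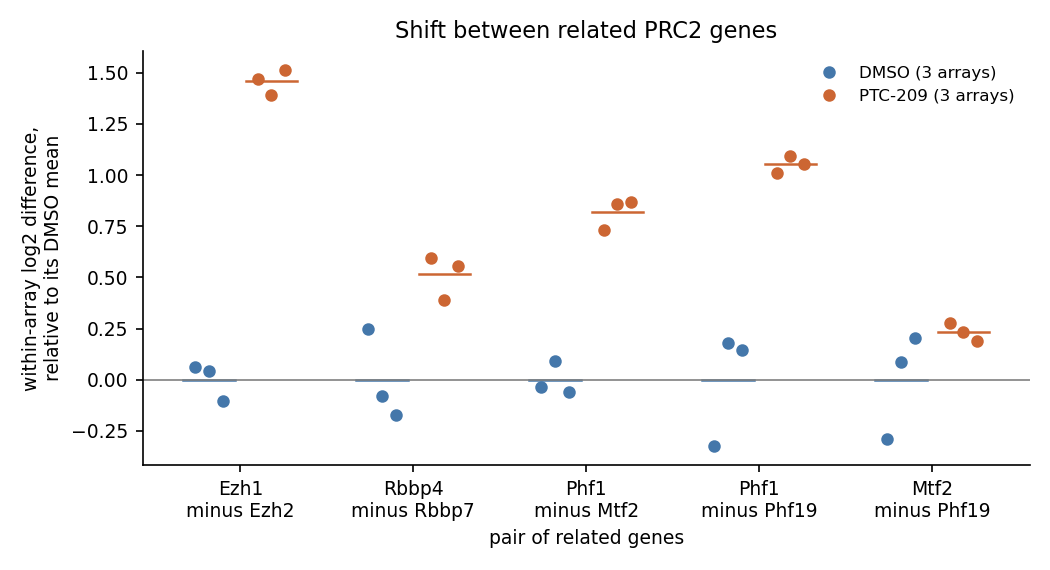
Within-array log2 differences between related PRC2 genes, each set to 0 at its DMSO mean, for 3 DMSO (blue) and 3 PTC-209 arrays (orange), with bars at group means. The groups are apart for Ezh1 minus Ezh2 (shift 1.46), Rbbp4 minus Rbbp7 (0.52), Phf1 minus Mtf2 (0.82) and Phf1 minus Phf19 (1.05), and overlap for Mtf2 minus Phf19 (0.23).

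Eed, which binds the methyl mark and stimulates the enzyme, read 8.19, 8.58 and 8.64 with DMSO and 8.48, 8.50 and 8.40 with PTC-209. DMSO array 1 was the lowest of the 6 and the other DMSO arrays the highest. Its difference was -0.014 (interval -0.30 to 0.28, limma adjusted p = 0.963), a value with no settled sign. A dim second probe set of Eed, at 2.37 ± 0.073 (SD, n = 3) with DMSO and 2.72 ± 0.44 (SD, n = 3) with PTC-209, was not called either (limma adjusted p = 0.253).

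Suz12, the scaffold of the core, read 9.21, 9.47 and 9.61 with DMSO and 9.19, 9.28 and 9.09 with PTC-209. DMSO array 1 was the lowest of its group, as for Eed, and lay within the range of the treated arrays. The difference of -0.24 (SE 0.121, interval -0.51 to 0.032) was not called (limma adjusted p = 0.208). Without DMSO replicate 1 it was -0.35 and passed narrowly (limma adjusted p = 0.0476).

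Rbbp7, a histone-binding WD40 protein that other chromatin complexes also use, read 10.18, 10.28 and 10.35 with DMSO and 9.56, 9.55 and 9.61 with PTC-209. The treated arrays sat within a narrow band below all controls. Rbbp7 fell by 0.70 on the log2 scale (SE 0.093), 1.62-fold (1.40 to 1.87), with a limma adjusted p of 0.000434. Its second probe set, also bright, fell by 0.77 (limma adjusted p = 0.000197), from 9.87 ± 0.046 to 9.10 ± 0.057 (SD, n = 3 each). Both probe sets thus placed all PTC-209 arrays below all DMSO arrays.

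Rbbp4, its close paralog, read 7.05, 6.82 and 6.80 with DMSO and 6.77, 6.56 and 6.78 with PTC-209. The groups did not overlap, but the gap was small beside the spread, and the difference of -0.18 (interval -0.43 to 0.069) was not called (limma adjusted p = 0.312). Rbbp4 minus Rbbp7 shifted by 0.52 toward Rbbp4, with no overlap of the groups (exact two-sided permutation p = 0.1, adjusted 0.125). Whether probes of these related genes read each other's RNA was not tested.

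The Polycomb-like subunits of PRC2.1 did not move as a group: Mtf2 and Phf19 fell and Phf1 rose. They share a Tudor domain and help to bring the complex to CpG islands. Mtf2 read 8.94, 9.02 and 8.99 with DMSO and 8.53, 8.44 and 8.58 with PTC-209. Its fall of 0.47 on the log2 scale (SE 0.091) was 1.38-fold (log2 interval -0.67 to -0.26, limma adjusted p = 0.00417). The controls lay close together, and all treated arrays lay below them. The call of Mtf2 was lost when a fold change above 1.2 was required (limma adjusted p = 0.158).

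Phf19 read 5.09, 4.78 and 4.65 with DMSO and 4.11, 4.06 and 4.24 with PTC-209. It fell past the threshold (difference -0.70, SE 0.127, limma adjusted p = 0.00283), and the groups did not overlap. DMSO array 1 was the highest of its group, and the treated arrays lay below the median brightness, so a fold is not given.

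Phf1 read 3.98, 4.18 and 4.01 with DMSO and 4.34, 4.37 and 4.52 with PTC-209. Every treated array was above every control, though the controls were below the median brightness. Its rise was 0.35 on the log2 scale (SE 0.102, limma adjusted p = 0.0327). This call was lost without DMSO replicate 1 (limma adjusted p = 0.0776) or 3 (0.104) and without PTC-209 replicate 1 (0.0508), 2 (0.0761) or 3 (0.114), so it held only when DMSO replicate 2 was the array left out.

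Within arrays, Phf1 minus Phf19 shifted by 1.05 and Phf1 minus Mtf2 by 0.82, both toward Phf1 and without overlap (exact two-sided permutation p = 0.1 each, adjusted 0.125). Mtf2 minus Phf19 shifted by 0.23, its groups overlapped, and the exact permutation p was 0.2 (adjusted 0.2).

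In PRC2.2, Jarid2, a catalytically inactive member of the Jumonji family that helps to recruit the complex, read 5.78, 5.60 and 5.58 with DMSO and 5.99, 5.95 and 5.84 with PTC-209. All treated arrays were above all controls. The difference of 0.28 (interval 0.051 to 0.50) was not called (limma adjusted p = 0.08), and it passed under 4 of the 16 alternatives. Its partner Aebp2, a zinc finger protein, went from 6.71 ± 0.072 to 6.81 ± 0.13 (SD, n = 3 each) and was not called (limma adjusted p = 0.605).

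Counting arrays alone, the groups of 7 of the 10 members did not overlap, 3 with PTC-209 higher (Ezh1, Jarid2, Phf1) and 4 with it lower (Rbbp4, Rbbp7, Mtf2, Phf19). Over all genes this was so for 40.5%, 21.1% higher and 19.4% lower. The share among genes of like brightness was not computed, and calls were more common there (45.4% against 26.6% over all genes). Ranked by size, a larger absolute difference than that of Ezh1 was found in 3.39% of genes, than Phf19 in 12.3%, Rbbp7 in 12.4%, Mtf2 in 20.5% and Phf1 in 27.5%. For the members that were not called these shares lay between 34.3% (Jarid2) and 94.7% (Eed).

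**Figure D3:**
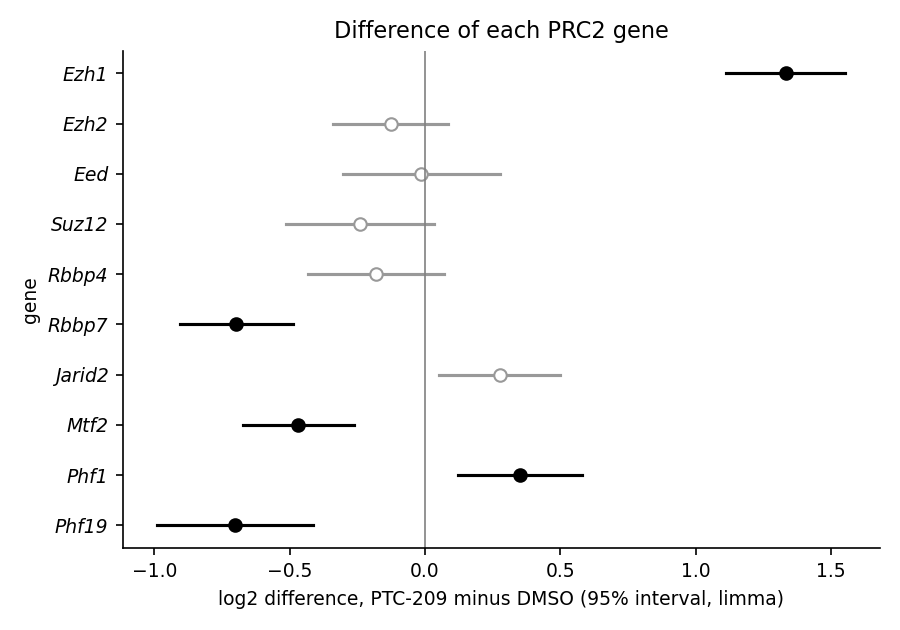
Log2 difference (PTC-209 minus DMSO) of the 10 PRC2 genes with 95% intervals from limma. Filled points had an adjusted p under 0.05: Ezh1 (1.33) and Phf1 (0.35) to the right of 0, Rbbp7 (-0.70), Mtf2 (-0.47) and Phf19 (-0.70) to the left. The interval of Jarid2 excludes 0, but its adjusted p is 0.08.

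By Euclidean distance between the 6 array values after each gene's mean is taken off, the genes most like Ezh1 were Bbs4 (distance 0.082), Zbtb18 (0.085), Tmem87b (0.091), Wasl (0.12) and Sars (0.12). They rose by 1.29, 1.34, 1.30, 1.33 and 1.30 on the log2 scale. Over 6 arrays in 2 groups, this likeness describes little beyond a rise of like size.

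Around the members, 4 of 5 other PRC2 partners reached the median brightness in each group. Among genes that reached it in either group 21.9% rose, and over all genes 12.9%. Of the 5 partners 2 rose, 0 fell and 3 were not called. Those that rose were Lcorl (0.48 on the log2 scale, limma adjusted p = 0.00909) and Lcor (0.47, limma adjusted p = 0.00778), whose loci encode the PALI proteins of PRC2.1. The demethylase Kdm6b, which removes the methyl groups that PRC2 places, rose with Ezh1 and by a like amount, from 5.11 ± 0.18 to 6.46 ± 0.12 (SD, n = 3 each), or 1.35 (limma adjusted p = 3.41e-05). It was the only rise among 3 demethylases. Kdm6a and Uty differed by 0.035 and -0.13 and were not called.

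Rbbp4 and Rbbp7 also serve in the NuRD, SIN3, CAF-1 and MuvB complexes, in the nucleosome remodeller NURF and with Hat1. The 24 genes listed for those complexes all reached the median brightness, where 45.4% of genes were called (23.5% as falls). Of the 24, 9 fell, as Rbbp7 did, 1 rose (Gatad2b, by 0.66) and 14 were not called, with a median difference of -0.23. The falls were led by Chaf1a (-1.73) and Chaf1b (-1.47), which load histones at replication forks, followed by the acetyltransferase Hat1 (-1.34), the deacetylase Hdac1 (-1.30) and Sap18 (-1.19). The list of proliferation genes was chosen with earlier results of these data known, so its fall is not an independent finding. All 17 measured reached the median brightness, where 23.5% of genes fell. Of the 17, 16 fell and 0 rose, with a median of -1.96. Largest among them were Rrm2 (-3.24), Mki67 (-2.65), Top2a (-2.62), Tyms (-2.57) and Ccna2 (-2.40), although Top2a was at -1.33 when its probe sets were averaged. The mean log2 level of these 17 genes was 8.77 to 8.87 on the DMSO arrays and 6.86 to 7.03 on the PTC-209 arrays, while Ezh2 was not called. Whether the lower proliferation signal has a part in the falls of Rbbp7, Mtf2 and Phf19 was not tested. In bulk RNA, a change in how many cells express a gene cannot be told apart from a change in RNA per cell.

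The reader complex, canonical PRC1, had 4 rises (Cbx8, 0.69; Phc2, 0.55; Scmh1, 0.43; Ring1, 0.37) and 1 fall (Bmi1, -0.54) among 11 measured genes, all of which reached the median brightness, where 45.4% of genes were called. The rises numbered 2 when replicate 1 or 2 of either group was left out, since neither Scmh1 nor Ring1 then passed. Scmh1 also failed without DMSO replicate 3 and after median centring (limma adjusted p = 0.145 and 0.0623), and Ring1 without PTC-209 replicate 3 (0.131). Among 11 genes that oppose Polycomb silencing, all of which also reached the median brightness, the H3K36 methyltransferases Nsd2 (-0.53) and Nsd1 (-0.47) fell. The H2A deubiquitinase Bap1 rose (0.44), and 8 were not called. Bap1 no longer passed when DMSO replicate 2 or 3, or replicate 1 or 2 of the PTC-209 group, was left out, and Nsd1 when PTC-209 replicate 3 was. Of 24 Polycomb target genes, chosen as known targets in other cells, 20 were not called, and the median difference was 0.078. Over all genes 26.6% were called. Of the 24, 11 reached the median brightness with DMSO and 13 with PTC-209. Over all 19937 genes, 10674 reached it with DMSO and 10648 with PTC-209. Whether dimness has a part in how many targets were not called was not tested. Gata4 rose by 0.82, Cdkn2b by 0.52 and Gata6 by 0.41, while Cdkn2a fell by 0.39. Gata6 no longer passed when replicate 1 or 2 of either group was left out, nor did Cdkn2a when DMSO replicate 1 or 3, or replicate 1 or 2 of the PTC-209 group, was. The arrays read mRNA, and neither PRC2 protein nor the methyl mark was measured.

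**Figure D4:**
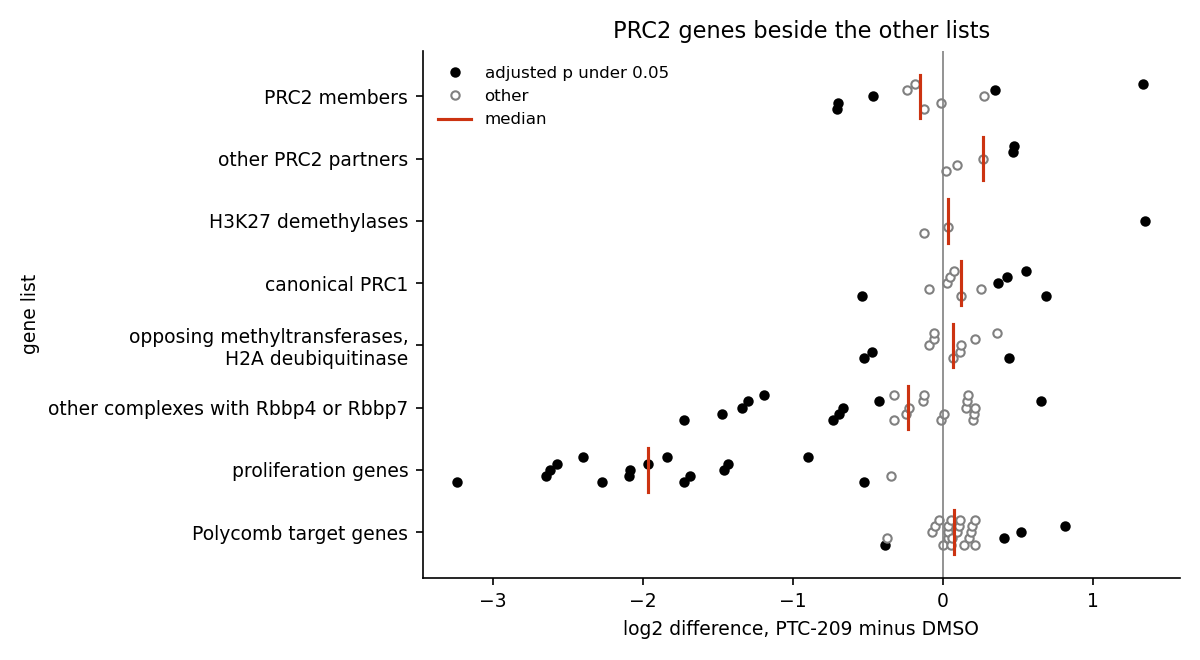
Log2 differences (PTC-209 minus DMSO) of the measured genes of 8 lists, with filled points at an adjusted p under 0.05 and a red bar at each median. The PRC2 members spread on both sides of 0 around a median of -0.15, while 16 of 17 proliferation genes are filled and to the left.

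All 7 epithelial markers reached the median brightness in both groups, whereas 0 of 4 lung epithelial markers (Nkx2-1, Sftpc, Sftpb, Scgb1a1) did so in either. With PTC-209, 4 epithelial markers fell and 2 rose, at a brightness where 45.4% of genes were called. Of 4 measured leukocyte markers 2 reached the median brightness in each group, Cd3e (4.38 and 4.53) and Cd68. Ptprc (3.17 and 3.06) and Csf1r (3.46 and 3.57) were dim in both, while Cd68, also a lysosomal protein, rose by 2.61. Of 4 endothelial markers only 1 reached it, Cdh5, which fell by 1.33 from 9.49. Pecam1 was dim (3.39 and 3.51), as were Kdr and Tek. The 5 fibroblast markers were not called, and 3 of them (Col1a1, Col1a2 and Pdgfra) reached the median brightness in each group. Array correlations, across probe sets, were 0.992 to 0.996 within groups and 0.97 to 0.974 between them.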

How the data were processed

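Total RNA of 6 samples was extracted with Trizol, biotin-labelled and hybridised to Affymetrix arrays, per the labels' protocols. The deposited values are log2 expression made by the authors with RMA, per the submitters' processing notes, which equalises array distributions and hides a shift shared by most genes. That the scale is log2 was inferred from the range of the values. The genome build and the RMA software version are not stated in the labels. Groups and replicate numbers came from the titles, and the samples' free-text descriptions, which speak of embryos, were not used.

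A block of 6568 probe sets with consecutive identifiers and 0 listed genes, taken as controls, was left out, and 28192 were tested, of which 21640 have 1 gene symbol. Each probe set was fitted for treatment alone by limma 3.58.1 under R 4.3.3 (lmFit, then eBayes with 5.27 prior and 4 residual degrees of freedom), with Benjamini-Hochberg adjustment over all 28192, and called under 0.05. Dim probe sets were kept. The number of arrays, 3 per group, limits the precision. The fit was tested on simulated data.

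The members and lists were chosen with earlier results of these data known. All members were named, along with at most 5 called genes per direction of each list and the 5 genes nearest Ezh1. Pairs were compared within arrays by exact permutation. Figures were drawn with matplotlib 3.10.9.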

Additional observations from a re-analysis of the deposited data

How the results depend on the processing

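The differences of Ezh1, Rbbp7 and Phf19 kept their direction and their calls under all 16 alternatives. These were other priors, normalizations, filters, weights, a block, a minimum fold change, averaged probe sets, the control block kept and each array left out. The filter on dim probe sets kept Phf19 only through its DMSO mean (4.84) and Phf1 only through its PTC-209 mean (4.41). For these genes the filter was tied to the difference and gives no separate support. The count of members that rose was 1 with a minimum fold change of 1.2 and with the control block kept, 3 with dim probe sets left out, quantile normalization again or array weights, where Jarid2 passed, and 1 to 2 when an array was left out, while 3 to 4 fell. Mtf2 was lost only with the minimum fold change, where 2 fell, and Phf1 also with the control block kept (limma adjusted p = 0.0569). The shift of Ezh1 minus Ezh2 was 1.41 to 1.49 with an array left out and 1.46 to 1.55 otherwise. Eed, near 0, turned positive with its probe sets averaged (0.17) and without DMSO replicate 2 (0.04), DMSO replicate 3 (0.072) or PTC-209 replicate 3 (0.017), and ranged from -0.15 to 0.072 over the arrays left out. With the replicate number as a block, 2 members rose and 3 fell, and the shift was again 1.46 (exact sign-flip p = 0.25, the smallest for 3 pairs). Same-numbered arrays correlated in their deviations by 0.231, 0.07 and 0.073. Arrays of different numbers were not compared in this way, so these values cannot settle whether the numbers are pairs. The main fit did not take them as pairs. Of 224 recomputed list counts, 200 stayed within 1.5 times the reported count and 24 did not, and calls of Bmi1, Cbx8, Cdkn2b, Lcor, Lcorl and Nsd2 were lost only with the minimum fold change. Beside the losses given above, Nsd1, Scmh1, Ring1, Bap1, Gata6 and Cdkn2a were lost with it too. With the control block kept, Scmh1, Ring1, Bap1, Gata6 and Cdkn2a were lost (limma adjusted p = 0.0915, 0.0696, 0.0501, 0.0565 and 0.0534). Dim probe sets, such as those of Phf1 and Phf19, leave folds uncertain.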
